A study of Homo sapiens with 12 samples.

Results

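The genes described here are the chains of the collagens, laminins and integrins. They were chosen by symbol from the protein-coding entries of the count table: every collagen chain (COL, a number, A, a number), every laminin chain (LAMA, LAMB or LAMC) and every integrin chain (ITGA or ITGB), without the integrin-binding proteins ITGB1BP and ITGB3BP. The rule found 83 of the 70116 genes in the table, namely 44 collagen chains, 12 laminin chains and 27 integrin entries, among them ITGBL1, which is integrin-like. The rule used no measured value. Of the 83 genes, 42 had enough reads to be tested (18 collagens, 8 laminins and 16 integrins), beside 16197 tested genes in all. The remaining 41 reached at most a mean of 0.305 CPM (read counts scaled to library size) in any group, and 12 of them had 0 counts in all 12 libraries: COL6A5, COL9A1, COL14A1, COL15A1, COL19A1, COL21A1, COL25A1, LAMA4, LAMB4, ITGA8, ITGA9 and ITGBL1.

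Messenger RNA was sequenced from cultured MiaPaCa-2 cells, a line derived from a human pancreatic carcinoma, transfected with small interfering RNA (siRNA). All 4 groups had 3 libraries: siControl, and knockdowns of SLC25A1 (the mitochondrial citrate carrier), ACLY (ATP citrate lyase, which cleaves cytosolic citrate) and ACO1 (cytosolic aconitase, also an iron-regulated RNA-binding protein). The groups shared the cell line and the transfection and differed in the siRNA target, and the labels give neither the siRNA sequences nor the time after transfection. Nothing in the labels says that replicates were separate cultures, so p-values measure only the spread between these libraries.

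Collagens are trimers of alpha chains that build fibrils, basement membrane networks, microfibrils or transmembrane anchors. Laminins are trimers of an alpha, a beta and a gamma chain and organise the basement membrane. Integrins are heterodimers of an alpha and a beta chain that bind these matrix proteins and join them to the actin cytoskeleton or, in hemidesmosomes, to keratin filaments. In pancreatic cancer much of the matrix comes from fibroblasts, and carcinoma cells add basement membrane and receptors of their own.

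Library totals ran from 24159424 to 43792811 counts. Each target was lowest in its own knockdown: SLC25A1 fell to 8.78% of siControl, ACLY to 7.25% and ACO1 to 3.75%. The cells carried keratins, SOX9, VIM and ZEB1, while the epithelial markers EPCAM and CDH1 were at or near 0. Fibroblast markers summed to between 0.655 and 1.21 CPM in any library over 7 genes, most of it ACTA2, with LUM at 0 throughout, and the 4 acinar markers were at 0 in all libraries. One library stood apart from its group, siACO1 replicate 3. There the deviation of a gene from the mean of the other libraries of its group correlated with exon length across 15384 genes (Spearman's rho -0.244). Genes are not independent replicates. In the libraries of the other groups rho ran from -0.096 to 0.044. It was 0.148 and 0.189 in siACO1 replicates 1 and 2, each set against a mean that includes replicate 3. The tested chains are long, with a median exon length of 7259 bases against 4276 for all tested genes. Their median deviation in that library was -0.062 on the log2 scale, within the range of the other libraries (-0.07 in siSLC25A1 replicate 1 to 0.061 in siSLC25A1 replicate 3). The siACO1 results of the chains are also given without that library.

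In the siControl cells, levels scaled to exon length (TMM-scaled CPM per kb, used for comparisons between genes) ran among the tested chains from 0.0234 CPM per kb for LAMA3 to 216 CPM per kb for ITGB1. ITGB1 is the beta chain shared by the largest group of integrins, and its SD was 1.61 CPM per kb (n = 3). COL5A2, a chain of fibrillar type V collagen, followed at 101 ± 1.15 CPM per kb. ITGB4, the beta chain of the hemidesmosome integrin, stood at 89.8 ± 3.43 CPM per kb and COL1A2, a chain of type I collagen, at 79.3 ± 0.913 CPM per kb. COL6A1 (46.1 CPM per kb), ITGA3 (40.9) and LAMC1 (26.5) came next. The neighbours in this order from ITGB1 to LAMC1 differed by more than their SDs.

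**Figure D1:**
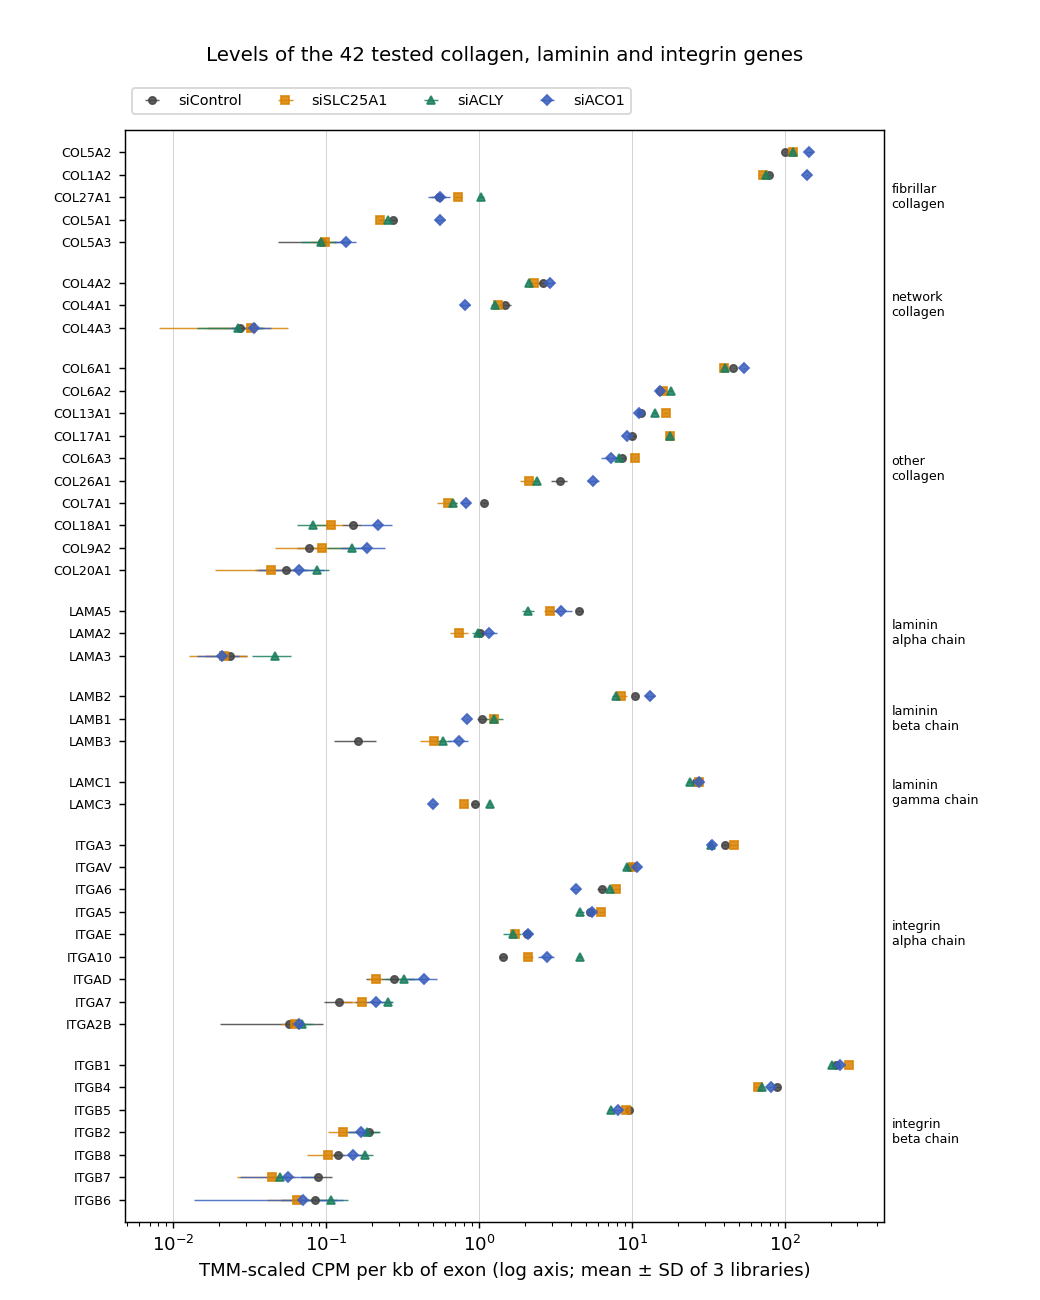
Level of the 42 tested chains in each group, as TMM-scaled CPM per kb of exon on a log axis; points are means and bars SDs of 3 libraries, and genes are grouped by role. ITGB1, COL5A2, ITGB4 and COL1A2 lie highest in siControl, and COL1A2 rises to 141 CPM per kb in siACO1.

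Some fibrillar chains were low or near 0, among them COL1A1 and COL5A1 beside the partner each is known to assemble with. COL1A1, the major chain of type I collagen, had a mean of 0.184 CPM in siControl and between 0 and 9 counts in a library, while COL1A2 had 885 CPM. COL3A1 was at 0 in siControl, and COL5A1, which joins COL5A2 in type V collagen, had 3.06 CPM against 749 CPM for COL5A2. Among the integrins, ITGA2 and ITGA1, the main collagen-binding alpha chains of epithelium and stroma, had at most 0.143 CPM in any group, and so ITGA10 was the collagen-binding alpha chain with the highest level in siControl, at 9.07 CPM. In bulk RNA, fewer cells expressing a gene and less RNA per cell cannot be told apart.

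Among the 42 tested chains, 21 changed in siSLC25A1 against siControl at an adjusted p under 0.05 in edgeR's quasi-likelihood test (50.0%, beside 19.6% of all tested genes). In siACLY 26 changed (61.9%, beside 36.7% of all tested genes), and in siACO1 23 changed (54.8%, beside 37.1%). By direction, 11 chains rose and 10 fell in siSLC25A1, where 10.3% of all tested genes rose and 9.27% fell. In siACLY 12 rose and 14 fell, where 18.4% of all tested genes rose and 18.3% fell. In siACO1 13 rose and 10 fell, where 17.8% rose and 19.3% fell. With unscaled library totals the siACO1 split became 15 higher and 6 lower, and without siACO1 replicate 3 it was 15 higher and 11 lower. The groups share an estimate of spread, so siACO1 replicate 3 also bears on the other comparisons. Without it, 4131, 6734 and 6196 genes were called in siSLC25A1, siACLY and siACO1, beside 3173, 5943 and 6008 with it. Of the chains, 22, 27 and 26 were then called. The median log2 fold change of the chains was -0.07, -0.04 and 0.08 in siSLC25A1, siACLY and siACO1, against -0.00448, 0.00769 and 0.00632 over all tested genes. The median level in siControl was 11.3 CPM for the chains and 13.6 CPM for all tested genes. With library totals the siACO1 calls of LAMA5, LAMB1, COL17A1 and ITGB4 were lost (adjusted p = 0.0647, 0.0538, 0.191 and 0.107), and COL4A2 and COL18A1 were called there (adjusted p = 0.0158 and 0.0424). In siACLY the calls of COL4A1 and LAMC1 were lost with them (adjusted p = 0.0547 and 0.134), and in siSLC25A1 those of COL6A3 and ITGAE (adjusted p = 0.0673 and 0.0516). Other settings also moved calls near the threshold. DESeq2 did not call LAMB1 in siACLY (adjusted p = 0.068), ITGAD in siACO1 (0.0608) or ITGAE in siSLC25A1 (0.0641), and called COL6A3 in siACO1 (0.0076) and ITGB1 in siACLY (0.0346). With median-of-ratios scaling LAMB1 in siACLY (adjusted p = 0.0502), ITGAE in siSLC25A1 (0.0518) and ITGB1 in siACO1 (0.0617) were not called. Without a filter LAMB1 in siACLY (adjusted p = 0.0775), COL17A1 in siACO1 (0.0739) and ITGB1 in siACO1 (0.162) were not called, and COL6A3 in siACO1 was (4.03e-05). With at least 10 counts required in every library, COL4A2 (adjusted p = 0.0464) and COL18A1 (0.0402) were called in siACO1. With the groups compared alone, COL17A1 (adjusted p = 0.0672), ITGAD (0.0585) and ITGB1 (0.0867) were not called in siACO1, while ITGB1 in siACLY (0.0142) and LAMB1 in siSLC25A1 (0.0497) were.

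At least 1 of the 3 comparisons called 34 of the 42 chains (81.0%, beside 59.0% of all tested genes). The 3 comparisons share the siControl libraries, so their calls are not independent of each other. All 3 called 12 chains (28.6%, beside 6.87% of all tested genes). COL5A2, ITGA10 and LAMB3 were higher in each knockdown, and ITGB4, LAMA5 and COL7A1 were lower in each. ITGA6 and COL17A1 were higher in siSLC25A1 and siACLY and lower in siACO1, and LAMB2, COL26A1 and COL6A1 were lower in siSLC25A1 and siACLY and higher in siACO1. ITGA3 was higher in siSLC25A1 and lower in the other knockdowns. COL4A3, COL5A3, COL20A1, LAMA3, ITGA2B, ITGB2, ITGB6 and ITGB7 were called in none, all with siControl means under 1.3 CPM. The exons of ITGB6 (20.6%) and ITGB7 (42.1%) overlap other genes, so their reads are uncertain.

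**Figure D2:**
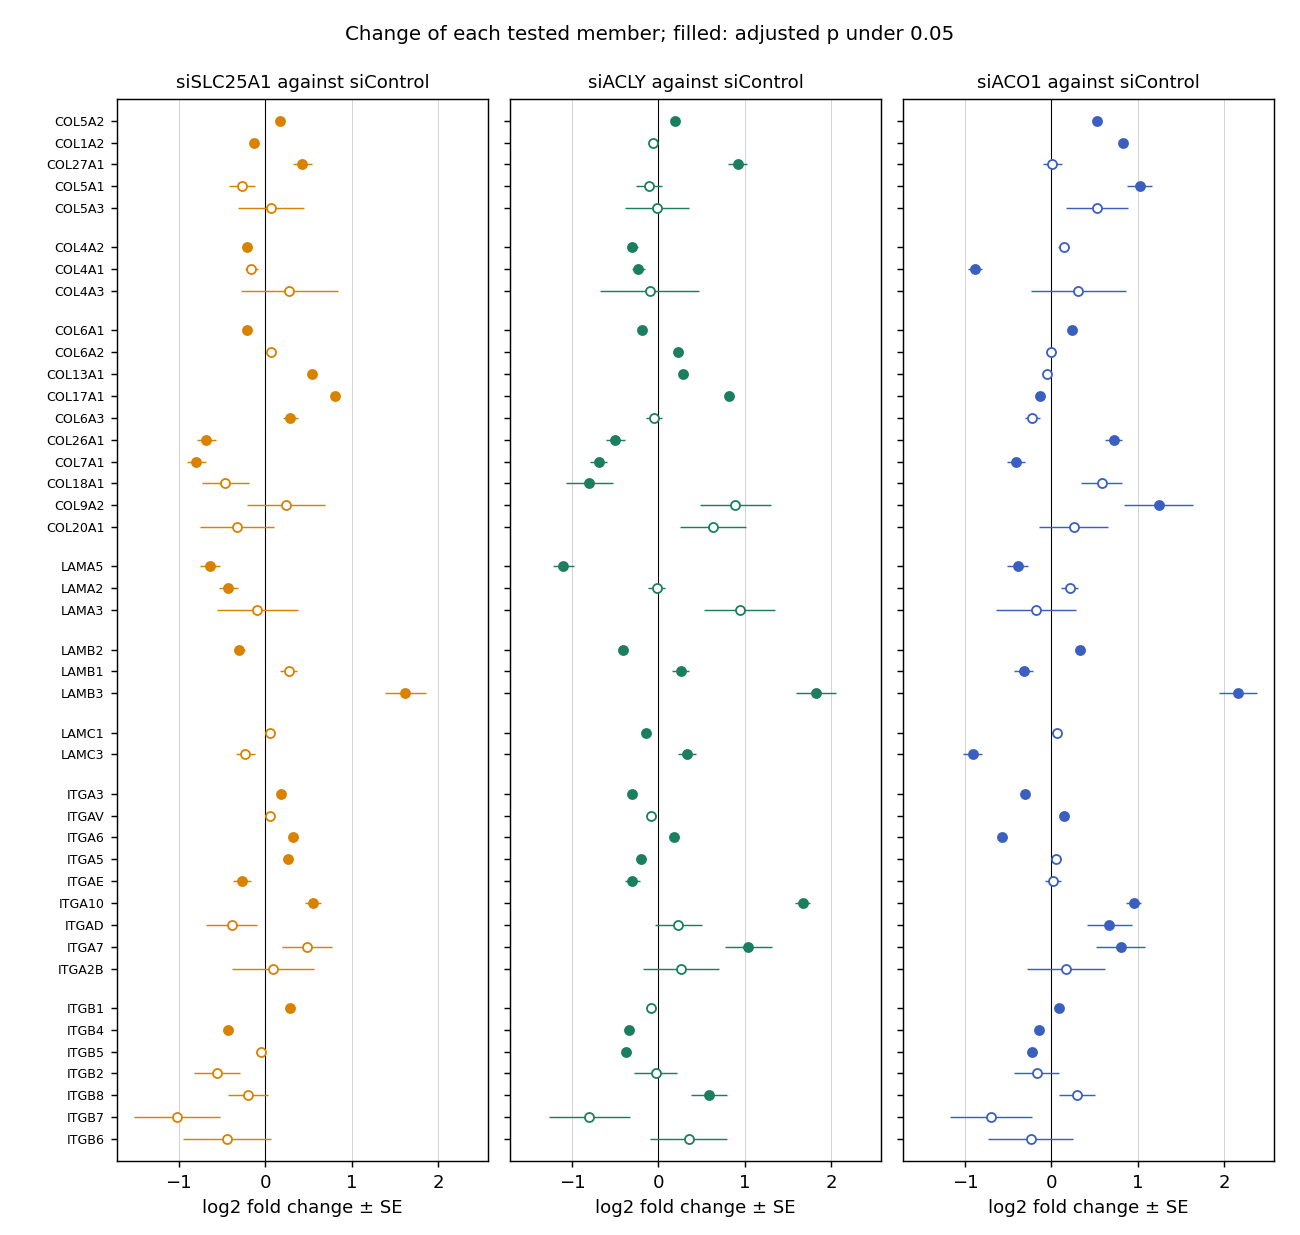
Log2 fold change of each tested chain against siControl in the 3 knockdowns, with its SE from the edgeR fit; filled points passed an adjusted p of 0.05 and open points did not. The fibrillar chains COL5A2, COL1A2 and COL5A1 lie to the right in siACO1, and LAMB3 lies farthest to the right in each panel.

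Of the 5 tested fibrillar collagens, 3 rose in siACO1, where 17.8% of all tested genes rose. In siSLC25A1 2 rose and 1 fell, and in siACLY 2 rose, where 10.3% and 18.4% of all tested genes rose. COL1A2, at chr7:94394561-94431232 on the plus strand (GENCODE 29, GRCh38), had 874, 886 and 894 CPM in siControl and 1590, 1590 and 1540 CPM in siACO1, and the groups did not overlap. This was a log2 fold change of 0.83 (SE 0.04, adjusted p = 6.1e-16), or 1.78-fold. In siSLC25A1 (793, 783 and 843 CPM) COL1A2 fell by 0.13 on the log2 scale (adjusted p = 0.0143), a call lost without siSLC25A1 replicate 2 (adjusted p = 0.0891) or siControl replicate 3 (0.07). In siACLY it had 875, 848 and 825 CPM, with no call (adjusted p = 0.256). COL5A2 had 749, 741 and 758 CPM in siControl and 1110, 1110 and 1020 CPM in siACO1, with no overlap. Its log2 fold change was 0.53 (SE 0.04, adjusted p = 1.83e-11), beside 0.17 in siSLC25A1 and 0.19 in siACLY, where it also rose. COL5A1 had 2.98, 2.99 and 3.21 CPM in siControl and 6.68, 6.20 and 5.74 CPM in siACO1, again without overlap. It rose by 1.02 on the log2 scale (SE 0.14, adjusted p = 6.47e-07).

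COL27A1, a fibrillar collagen best known from cartilage, followed another order. It had 7.45, 6.93 and 8.61 CPM in siControl, 9.55, 10.7 and 10.5 CPM in siSLC25A1 and 13.8, 15.1 and 14.4 CPM in siACLY. The siACLY libraries lay above all others, with a log2 fold change of 0.92 (SE 0.11, adjusted p = 5.43e-08). In siSLC25A1 the change was 0.43 (adjusted p = 0.00605), which was not called without siControl replicate 2 (0.36, adjusted p = 0.0508), and in siACO1 it was 0.01. COL5A3, at 0.636 CPM in siControl, was not called in any comparison. Summed over the 11 fibrillar genes, CPM went from 1650 ± 16.7 (SD, n = 3) in siControl to 2670 ± 75.8 in siACO1, and stood at 1670 ± 62.0 in siSLC25A1 and 1720 ± 26.7 in siACLY. Such sums of counts weigh long and abundant transcripts most, here COL1A2 and COL5A2. Without siACO1 replicate 3 the siACO1 log2 fold changes were 0.84 for COL1A2, 0.56 for COL5A2 and 1.07 for COL5A1.

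The network chains COL4A1 and COL4A2 form the heterotrimers of basement membrane type IV collagen, and their genes lie head to head on chromosome 13. In RefSeq (GRCh38.p14) the starts are 127 bases apart, COL4A1 on the minus strand at 110307157 and COL4A2 on the plus strand at 110307284. GENCODE 29 (GRCh38) draws the genes as overlapping, COL4A1 at chr13:110148963-110307233 and COL4A2 at chr13:110305812-110513209. The 126 bases between the RefSeq starts are shown because the pair separated in siACO1; they lie at chr13:110307158-110307283 and are written on the plus strand, with a CCAAT box and a GC box (GGGCGG) in capitals.
COL4A1 and COL4A2: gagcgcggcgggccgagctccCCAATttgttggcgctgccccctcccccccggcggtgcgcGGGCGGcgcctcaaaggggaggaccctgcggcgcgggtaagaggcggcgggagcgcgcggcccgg

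COL4A1 had 20, 22.3 and 23.7 CPM in siControl and 12.6, 10.9 and 12.3 CPM in siACO1. The groups did not overlap, and COL4A1 fell by 0.88 on the log2 scale (SE 0.08, adjusted p = 6.88e-10). COL4A2 had 46.0, 51.3 and 55.3 CPM in siControl and 57.2, 58.0 and 53.1 CPM in siACO1, where the groups overlapped. Its log2 fold change was 0.14 (SE 0.06, adjusted p = 0.0628); it was called at 0.18 without siACO1 replicate 3 (adjusted p = 0.0156) and at 0.20 without siControl replicate 3 (adjusted p = 0.0189), while COL4A1 was at -0.91 without siACO1 replicate 3. The log2 ratio of COL4A1 to COL4A2, per kb, was -0.81, -0.81 and -0.83 in siControl and -1.79, -2.02 and -1.73 in siACO1. The difference of -1.03 had an exact two-sided permutation p of 0.1, the smallest that 3 against 3 libraries allow. The pair was chosen after its values had been seen, so this p is not a test of it. In siSLC25A1 and siACLY the ratio differed from siControl by 0.04 and 0.07, with overlapping libraries (exact p = 0.3 for each).

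Both network chains were lower in siACLY, with log2 fold changes of -0.30 for COL4A2 (adjusted p = 0.000255) and -0.23 for COL4A1 (adjusted p = 0.0171). The COL4A1 call was lost without siACLY replicate 1 (adjusted p = 0.057) or 3 (0.0634) and without siControl replicate 2 (0.0547) or 3 (0.102). In siSLC25A1 COL4A2 fell by 0.21 (adjusted p = 0.017), which was not called without siControl replicate 2 (adjusted p = 0.0591) or 3 (0.152), or without siSLC25A1 replicate 1 (0.0625) or 2 (0.106). COL4A3 had 0.249 CPM in siControl and was not called, and COL4A4, COL4A5 and COL4A6 were not tested.

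The chains of type VI collagen, which forms beaded microfibrils, did not move together. COL6A1 had 246, 248 and 246 CPM in siControl, 206, 214 and 219 CPM in siSLC25A1, 215, 212 and 222 CPM in siACLY and 297, 288 and 287 CPM in siACO1, and each knockdown lay outside the siControl range. Its log2 fold changes were -0.21, -0.19 and 0.24 (adjusted p = 0.000168, 0.000276 and 1.22e-05), and 0.24 in siACO1 also without replicate 3. COL6A2 had 82.3 CPM in siControl and 96.7 CPM in siACLY, a log2 fold change of 0.23 (adjusted p = 0.000755), and 86.3 and 82.5 CPM in siSLC25A1 and siACO1, where it was not called. COL6A3 had 158, 170 and 178 CPM in siControl and 203, 210 and 206 CPM in siSLC25A1, a log2 fold change of 0.29 (adjusted p = 0.0352) that was not called without siControl replicate 1 (adjusted p = 0.0987) or 2 (0.078), or without siSLC25A1 replicate 1 (0.0979), 2 (0.0995) or 3 (0.065). In siACO1 it had 157, 156 and 121 CPM and was not called (-0.22, adjusted p = 0.0673), but it was called at -0.11 without siACO1 replicate 3 (adjusted p = 0.0488), at -0.29 without siACO1 replicate 1 or 2 (adjusted p = 0.0188 and 0.0202), and at -0.27 without siControl replicate 1 (adjusted p = 0.0411). The log2 ratio of COL6A1 to COL6A2 per kb was 1.60 ± 0.08 (SD, n = 3) in siControl, 1.17 ± 0.00 in siACLY and 1.83 ± 0.02 in siACO1. The exact permutation p was 0.1 for each difference, the smallest possible. This pair was also chosen after its values had been seen, so the p is not a test of it.

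COL17A1 and COL13A1, both transmembrane collagens, rose in siSLC25A1 and siACLY. COL17A1, the collagen of hemidesmosomes, had 74.8, 71.6 and 67.7 CPM in siControl, 122, 130 and 123 CPM in siSLC25A1, 124, 128 and 127 CPM in siACLY and 66.4, 63.7 and 66.2 CPM in siACO1. Its log2 fold changes were 0.81 (SE 0.05, adjusted p = 4.56e-14) and 0.82 (SE 0.04, adjusted p = 1.37e-14) in siSLC25A1 and siACLY, with no overlap with siControl. The siACO1 change of -0.13 (adjusted p = 0.0302; -0.14 without siACO1 replicate 3) was lost without siACO1 replicate 2 (adjusted p = 0.11), siControl replicate 1 (0.178) or siControl replicate 2 (0.0687). COL13A1, found at cell-matrix contacts, had 65.8, 67.0 and 70.0 CPM in siControl and 95.2, 103 and 96.6 CPM in siSLC25A1. It rose by 0.54 there (SE 0.05, adjusted p = 1.41e-09) and by 0.29 in siACLY (adjusted p = 1.71e-05), and was at -0.05 in siACO1.

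COL7A1, which forms the anchoring fibrils below hemidesmosomes, was lower in every knockdown. It had 12.2, 11.5 and 12.3 CPM in siControl, 6.52, 6.11 and 8.12 CPM in siSLC25A1, 6.90, 7.67 and 7.82 CPM in siACLY and 8.85, 9.74 and 8.56 CPM in siACO1, all below siControl. The log2 fold changes were -0.80, -0.69 and -0.41 (adjusted p = 1.73e-06, 3.51e-06 and 0.00192), and -0.37 in siACO1 without replicate 3. COL26A1, an emilin-related collagen, had 10.9, 11.9 and 9.25 CPM in siControl, 6.06, 7.68 and 6.42 CPM in siSLC25A1, 7.48, 7.67 and 7.59 CPM in siACLY and 18.0, 15.9 and 19.1 CPM in siACO1. It therefore lay below siControl in 2 knockdowns and above it in siACO1. The log2 fold changes were -0.68, -0.50 and 0.72 (adjusted p = 3.86e-05, 0.000397 and 7.79e-07), and 0.66 in siACO1 without replicate 3. COL18A1, a basement membrane collagen that carries heparan sulfate, had 1.27 CPM in siControl and 0.704 CPM in siACLY. That change of -0.80 (adjusted p = 0.0208) was not called without siACLY replicate 2 or 3 or siControl replicate 2 or 3 (adjusted p from 0.0615 to 0.0809). In siACO1 it had 1.88 CPM (0.58, adjusted p = 0.0599) and was called without siACO1 replicate 1 (0.74, adjusted p = 0.028), and 16.4% of its exon bases overlap another gene. COL9A2, a fibril-associated chain, had 0.39, 0.305 and 0.286 CPM in siControl and 0.523, 0.78 and 1.03 CPM in siACO1 (1.24, adjusted p = 0.0145). That call was lost without siACO1 replicate 3 (0.99, adjusted p = 0.0921), siControl replicate 2 (0.0518) or siControl replicate 3 (0.0518). COL20A1 had 0.601 CPM in siControl and was not called.

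**Figure D3:**
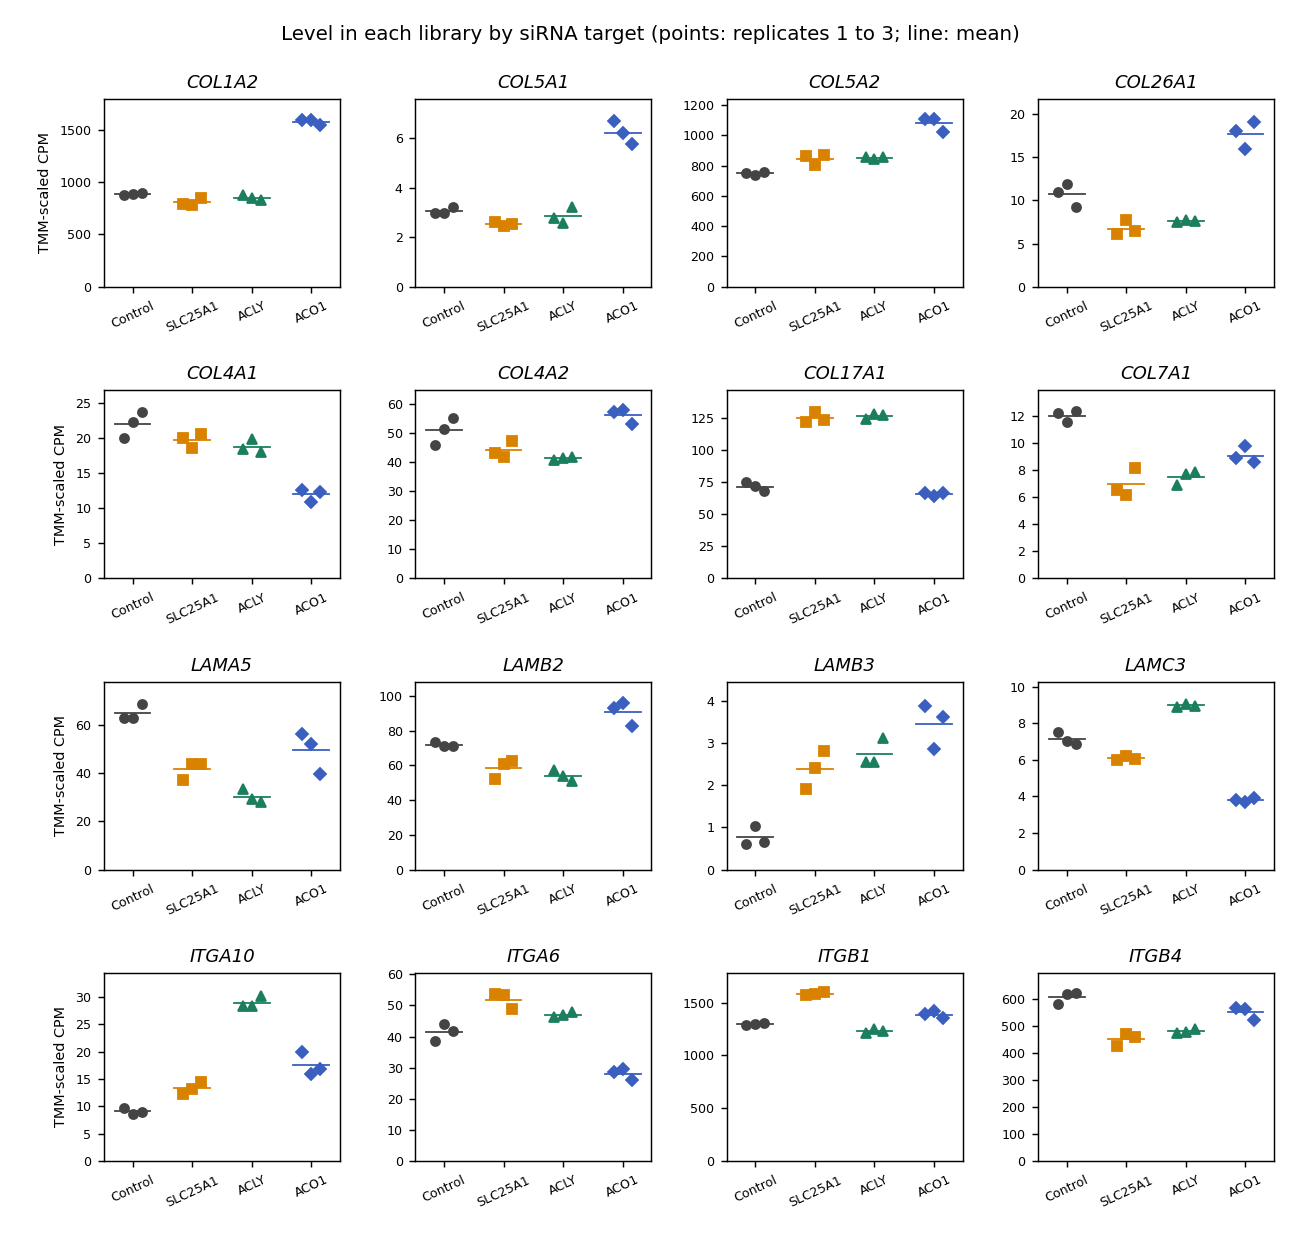
TMM-scaled CPM of 16 chains in each library; each panel is 1 gene with its own linear axis from 0, points are replicates and lines are means. COL1A2, COL5A1 and COL5A2 stand above all other groups in siACO1, COL4A1 stands below them there while COL4A2 does not, and LAMB3 is lowest in siControl.

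Of the laminin chains, LAMA5, the alpha chain of widespread epithelial laminins, fell in each knockdown. It had 63.0, 63.2 and 69.0 CPM in siControl, 37.4, 43.8 and 44.0 CPM in siSLC25A1, 33.3, 29.2 and 27.9 CPM in siACLY and 56.5, 52.4 and 39.8 CPM in siACO1. No knockdown library reached the siControl range. The log2 fold changes were -0.64 (SE 0.12, adjusted p = 0.00288) in siSLC25A1 and -1.10 (SE 0.12, adjusted p = 2.75e-05) in siACLY. The siACO1 change was -0.39 (adjusted p = 0.0208), at -0.26 without siACO1 replicate 3 (adjusted p = 0.00301), and was not called without siControl replicate 3 (adjusted p = 0.0609). LAMA2 had 10.4, 10.0 and 10.9 CPM in siControl and 8.64, 7.92 and 6.59 CPM in siSLC25A1. Its change of -0.43 there (adjusted p = 0.0051) was at -0.33 without siSLC25A1 replicate 3 (adjusted p = 0.052), and in siACO1 LAMA2 was not called (0.21, adjusted p = 0.114) but was without siACO1 replicate 3 (0.29, adjusted p = 0.0271).

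LAMB2, a beta chain of laminins with LAMA5 and LAMC1, had 73.4, 70.9 and 71.1 CPM in siControl. Its libraries lay lower in siSLC25A1 (52.1, 60.7 and 62.3 CPM) and siACLY (57.2, 53.6 and 50.9 CPM) and higher in siACO1 (92.7, 96.1 and 82.5 CPM). The log2 fold changes were -0.30, -0.41 and 0.33 (adjusted p = 0.00109, 1.15e-05 and 0.000118), and 0.39 in siACO1 without replicate 3. LAMB1, the other main beta chain, had 8.54 CPM in siControl and 6.85 CPM in siACO1 (-0.32, adjusted p = 0.0216; -0.31 without siACO1 replicate 3), a call lost without siControl replicate 1 (adjusted p = 0.0506) or 3 (0.0938). In siACLY it had 10.2 CPM (0.26, adjusted p = 0.0462), lost when any of 7 libraries was left out: siACLY replicate 3 (0.15, adjusted p = 0.321), siControl replicate 1 (0.104) or 2 (0.188), siACO1 replicate 1 or 2, or siSLC25A1 replicate 2 or 3 (0.0514 to 0.0567). In siSLC25A1 it had 10.3 CPM with no call (adjusted p = 0.0707), and was called without siACO1 replicate 3 (adjusted p = 0.0498). LAMC1, the common gamma chain, had 223 CPM in siControl, 231 CPM in siSLC25A1 and 202 CPM in siACLY, where its change of -0.14 (adjusted p = 0.0171) was lost without siACLY replicate 1 (adjusted p = 0.0704), siACLY replicate 2 (0.0512) or siControl replicate 3 (0.0685). In siACO1 it had 232 CPM with no call (0.06, adjusted p = 0.33), and was called without siACO1 replicate 3 (0.12, adjusted p = 0.0112). LAMC3, a gamma chain with 7.50, 7.02 and 6.86 CPM in siControl, had 3.78, 3.70 and 3.91 CPM in siACO1 and 8.89, 9.07 and 8.94 CPM in siACLY. It fell by 0.91 in siACO1 (SE 0.11, adjusted p = 1.66e-07), or by 0.93 without siACO1 replicate 3, and rose by 0.33 in siACLY (adjusted p = 0.0103).

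LAMB3 rose most of the tested chains in each knockdown, from a low level. LAMB3 codes the beta chain of the hemidesmosome laminin and lies at chr1:209614870-209652466 on the minus strand (GENCODE 29, GRCh38). It had 0.614, 1.03 and 0.643 CPM in siControl, 1.92, 2.41 and 2.82 CPM in siSLC25A1, 2.56, 2.56 and 3.12 CPM in siACLY and 3.90, 2.86 and 3.62 CPM in siACO1. All knockdown libraries lay above siControl. The log2 fold changes were 1.62 (SE 0.24, adjusted p = 7.96e-06), 1.82 (SE 0.23, adjusted p = 2.31e-07) and 2.16 (SE 0.22, adjusted p = 6.88e-09), and 2.12 in siACO1 without replicate 3. The alpha chain LAMA3, with which it assembles, had 0.344, 0.317, 0.675 and 0.303 CPM in siControl, siSLC25A1, siACLY and siACO1 and was not called against siControl.

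The stretches before a start of LAMB3, LAMA3 and ITGA10 are shown because LAMB3 and ITGA10 had the largest called rises in siACLY and LAMA3 is a partner of LAMB3. Each is 130 bases, written 5′ to 3′ on the strand of the gene and ending just before the start that RefSeq lists (GRCh38.p14). LAMB3 (chr1:209651375-209651504, minus strand) has 3 listed starts. The one shown was chosen because it alone of them has TGANTCA, the AP-1 sequence, in its window. It lies inside the gene as GENCODE 29 draws it. Which start these cells use was not tested. LAMA3 (chr18:23872890-23873019, plus strand) has 1 listed start, also inside the gene, and ITGA10 (chr1:145910051-145910180, minus strand) also has 1. Capitals mark the AP-1 sequence TGANTCA. They also mark the GC box GGGCGG. The CCAAT box is in capitals too, and lies on the opposite strand in LAMB3 and ITGA10, where it is read as its reverse complement. In LAMB3 TGANTCA begins 67 bases before the start, and in LAMA3 it begins at 125 and 69 bases before it.
LAMB3: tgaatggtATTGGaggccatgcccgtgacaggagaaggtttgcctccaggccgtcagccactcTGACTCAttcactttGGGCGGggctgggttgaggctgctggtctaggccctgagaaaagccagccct
LAMA3: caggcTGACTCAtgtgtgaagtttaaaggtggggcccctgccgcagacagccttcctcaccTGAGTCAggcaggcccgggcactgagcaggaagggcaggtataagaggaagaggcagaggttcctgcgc
ITGA10: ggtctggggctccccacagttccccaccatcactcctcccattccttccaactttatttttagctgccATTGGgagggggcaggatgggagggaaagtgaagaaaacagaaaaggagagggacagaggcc

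RefSeq listed a promoter window for 59 of the 83 genes and 32 of the 42 tested chains. Windows ran from 250 bases before to 50 bases after a start, and the motifs were searched on both strands. Of the 41 windows of tested chains, 3 (7.32%) held TGANTCA, against 7.73% of 34796 windows of all genes. CCAAT was in 9 (22.0%) against 34.6%, GGGCGG in 28 (68.3%) against 44.9%, and TATAAA in 7 (17.1%) against 11.6%. A match is a description of the letters and not a site.

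The integrin alpha chains that bind laminin changed in different directions. ITGA6, which pairs with ITGB4 in hemidesmosomes and also with ITGB1, had 38.6, 44.2 and 41.7 CPM in siControl, 53.6, 53.3 and 48.8 CPM in siSLC25A1, 46.2, 46.8 and 47.8 CPM in siACLY and 28.5, 29.5 and 26.1 CPM in siACO1. The siSLC25A1 and siACLY libraries lay above and the siACO1 libraries below siControl. It rose by 0.32 in siSLC25A1 (SE 0.06, adjusted p = 0.00016) and fell by 0.57 in siACO1 (SE 0.06, adjusted p = 1.77e-08), or by 0.52 without siACO1 replicate 3. The siACLY change of 0.18 (adjusted p = 0.0184) was lost without siACLY replicate 2 (0.052) or 3 (0.0718) and siControl replicate 1 (0.155) or 3 (0.0549), each an adjusted p. ITGA3, another laminin receptor, had 388, 406 and 409 CPM in siControl, 427, 464 and 474 CPM in siSLC25A1, 313, 327 and 333 CPM in siACLY and 337, 326 and 314 CPM in siACO1. It was higher in siSLC25A1 (0.18, adjusted p = 0.00271) and lower in siACLY (-0.31, adjusted p = 1.5e-06) and siACO1 (-0.30, adjusted p = 1.95e-06; -0.28 without siACO1 replicate 3). ITGA7 had 0.777 CPM in siControl and 1.61 CPM in siACLY (1.04, adjusted p = 0.00263). In siACO1 it had 1.36 CPM (0.80, adjusted p = 0.0225; 0.77 without siACO1 replicate 3), lost without siACO1 replicate 2 (0.14), siControl replicate 2 (0.0521) or siControl replicate 3 (0.101), each an adjusted p.

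ITGA10, at chr1:145891208-145910189 on the minus strand (GENCODE 29, GRCh38), binds collagen as a dimer with ITGB1. It had 9.62, 8.60 and 9.00 CPM in siControl, 12.3, 13.2 and 14.4 CPM in siSLC25A1, 28.3, 28.3 and 30.2 CPM in siACLY and 20, 15.9 and 16.8 CPM in siACO1. All knockdown libraries lay above siControl and the siACLY libraries lay above all others. The log2 fold changes were 0.55 (SE 0.09, adjusted p = 6.27e-05), 1.67 (SE 0.09, adjusted p = 3.77e-15) and 0.95 (SE 0.09, adjusted p = 1.13e-09; 0.97 without siACO1 replicate 3). ITGA10 was higher in siACLY than in siSLC25A1 (log2 fold change of siSLC25A1 against siACLY -1.12, adjusted p = 2e-11) and in siACO1 (siACLY against siACO1 0.72, adjusted p = 1.77e-08). ITGA5, of the fibronectin receptor, had 40.2 CPM in siControl, 48.0 CPM in siSLC25A1 (0.26, adjusted p = 0.00116) and 34.8 CPM in siACLY (-0.20, adjusted p = 0.00519), and 41.8 CPM in siACO1, with no call there. ITGAV, of the vitronectin receptors, had 80.4 CPM in siControl and 89.1 CPM in siACO1 (0.15, adjusted p = 0.0101; 0.16 without siACO1 replicate 3), which was lost without siACO1 replicate 2 (adjusted p = 0.0698) or siControl replicate 1 (0.0706).

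Some alpha chains are best known from leukocytes and platelets. ITGAE, which binds E-cadherin as a dimer with ITGB7, had 13.7 CPM in siControl, 11.4 CPM in siSLC25A1 and 11.0 CPM in siACLY. The siACLY change of -0.30 (adjusted p = 0.013) was lost without siACLY replicate 3 (-0.22, adjusted p = 0.0924). In siSLC25A1 the adjusted p was 0.0489 (-0.27), lost without any one siControl library (0.138, 0.0571 and 0.14), siSLC25A1 replicate 2 (0.149) or 3 (0.137), siACLY replicate 2 (0.0575), or siACO1 replicate 1 or 2 (0.0508 and 0.0501). ITGAD had 1.23 CPM in siControl and 1.92 CPM in siACO1 (0.67, adjusted p = 0.042; 0.71 without siACO1 replicate 3), a call lost without siControl replicate 2 (0.257), siACO1 replicate 2 (0.215), siControl replicate 1 (0.0763) or siACLY replicate 1 (0.0506), each an adjusted p. ITGA2B, the platelet chain, had 0.319 CPM and was not called.

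Of the beta chains, ITGB1 had 1290, 1300 and 1310 CPM in siControl, 1570, 1580 and 1600 CPM in siSLC25A1, 1210, 1250 and 1230 CPM in siACLY and 1390, 1420 and 1350 CPM in siACO1. It rose by 0.29 in siSLC25A1 (SE 0.04, adjusted p = 9.43e-07), where no library overlapped siControl. In siACLY it was at -0.08 (adjusted p = 0.102), and was called without siACO1 replicate 3 (adjusted p = 0.0158). Its change of 0.09 in siACO1 (adjusted p = 0.0492; 0.11 without siACO1 replicate 3) was lost without siACO1 replicate 1 (0.123) or 2 (0.206), any one siControl library (0.103 to 0.152), any one siACLY library (0.0742 to 0.0774), or siSLC25A1 replicate 2 (0.0682) or 3 (0.0815), and 9.99% of its 31-base words also occur in other genes. ITGB4 had 580, 618 and 623 CPM in siControl, 424, 469 and 459 CPM in siSLC25A1, 473, 478 and 488 CPM in siACLY and 566, 562 and 522 CPM in siACO1. It fell by 0.43 in siSLC25A1 (SE 0.04, adjusted p = 1.6e-08) and by 0.34 in siACLY (SE 0.04, adjusted p = 3.44e-07). In siACO1 it fell by 0.14 (adjusted p = 0.0103; -0.11 without siACO1 replicate 3), lost without siControl replicate 3 (adjusted p = 0.0566). ITGB5 had 61.4 CPM in siControl, 47.4 CPM in siACLY (-0.37, adjusted p = 1.14e-06) and 52.4 CPM in siACO1 (-0.23, adjusted p = 0.000674; -0.26 without siACO1 replicate 3). ITGB8 had 1.81 CPM in siControl and 2.73 CPM in siACLY (0.59, adjusted p = 0.0258), lost without siACLY replicate 1 (0.0839) or 3 (0.0973) and siControl replicate 2 (0.0692) or 3 (0.0917), each an adjusted p. ITGB2, ITGB6 and ITGB7, with 1.29, 0.396 and 0.397 CPM in siControl, were not called.

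Partner chains were also compared as ratios within a library. The log2 ratio of ITGA6 to ITGB4 per kb was -3.86, -3.76 and -3.85 in siControl, -2.94, -3.09 and -3.19 in siSLC25A1, -3.31, -3.30 and -3.30 in siACLY and -4.26, -4.20 and -4.27 in siACO1. The 4 groups did not overlap, and the differences from siControl were 0.75, 0.52 and -0.42 with an exact permutation p of 0.1 for each, the smallest possible. For LAMA5 to LAMC1 the mean log2 ratio was -2.54 in siControl and -3.24, -3.51 and -3.01 in siSLC25A1, siACLY and siACO1. For ITGA10 to ITGB1 it was -7.24 in siControl and -6.97, -5.49 and -6.38. The ITGA5 to ITGB1 ratio was -5.35 in siControl, and each knockdown overlapped it, with differences of -0.03, -0.13 and -0.04 (exact permutation p = 0.4, 0.2 and 0.3). These ratios were chosen after the values had been seen, 13 pairs in all, so an exact p is not a test of them. Of the 13 pairs, only ITGA5 to ITGB1 overlapped siControl in every knockdown, so a p of 0.1 does not set a pair apart.

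**Figure D4:**
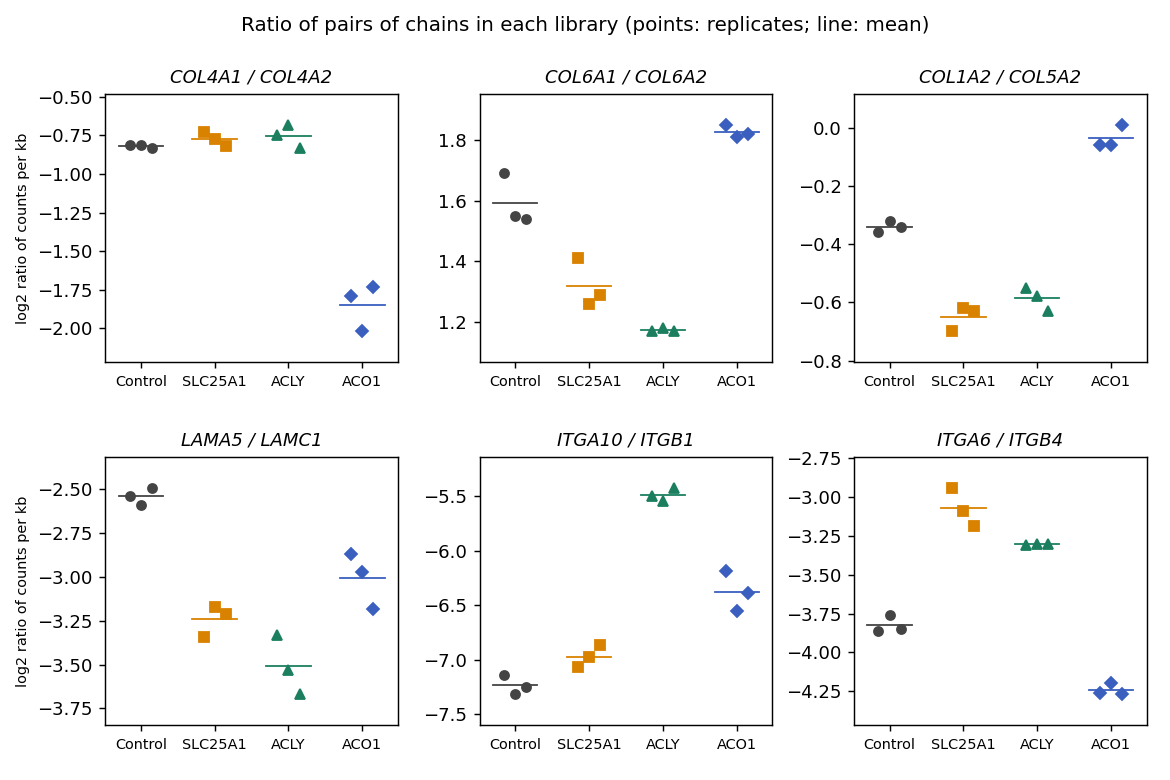
Log2 ratio of 6 pairs of chains in each library, as counts per kb; points are replicates, lines are means, and the vertical axes do not start at 0. The COL4A1 to COL4A2 ratio is lower in the 3 siACO1 libraries than in any other, and the ITGA6 to ITGB4 ratio is highest in siSLC25A1 and lowest in siACO1.

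Between the knockdowns, 15 of the 42 chains differed between siSLC25A1 and siACLY (35.7%, beside 33.8% of all tested genes). In siSLC25A1 against siACO1 28 differed (66.7%, beside 42.1%), and in siACLY against siACO1 27 differed (64.3%, beside 42.1%). COL1A2 differed between siSLC25A1 and siACO1 by -0.97 and between siACLY and siACO1 by -0.89 (adjusted p = 9.56e-18 and 8.97e-17). COL17A1 was higher in siSLC25A1 than in siACO1 by 0.94 and in siACLY than in siACO1 by 0.95 (adjusted p = 4.73e-16 and 4.82e-16). For LAMB3 the siSLC25A1 and siACO1 levels differed by -0.54 (adjusted p = 0.0263). Of the 8 chains without a call against siControl, only LAMA3 differed between knockdowns, by 1.12 in siACLY against siACO1 (adjusted p = 0.0344).

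Other genes of the matrix machinery were read as 4 lists. Of 25 tested genes for collagen processing and secretion, 4 changed in siSLC25A1 (2 higher, 2 lower), 12 in siACLY (6 and 6) and 12 in siACO1 (8 and 4). These were 16.0%, 48.0% and 48.0% of the list, beside 19.6%, 36.7% and 37.1% of all tested genes, and the median log2 fold changes were -0.04, -0.00 and -0.03, beside -0.00448, 0.00769 and 0.00632. BMP1, the protease that cuts procollagen, rose by 0.47 in siACO1 (adjusted p = 7.42e-09) and SERPINH1, the collagen chaperone, which was named after its values were seen, rose by 0.38 (adjusted p = 7.94e-09), or by 0.51 and 0.34 without siACO1 replicate 3. PCOLCE2, an enhancer of procollagen cleavage, rose by 0.91 in siACLY (adjusted p = 5.55e-09), and its relative PCOLCE rose by 0.70 in siACO1 (adjusted p = 0.00166). The hydroxylases P4HA2 and P3H2 rose in siACLY by 0.42 and 0.43, and COLGALT2, a collagen galactosyltransferase, rose by 0.65 in siSLC25A1 (adjusted p = 3.94e-08) and fell by 0.35 in siACO1. ADAMTS14, a procollagen protease at 1.56 CPM in siControl, fell by 1.12 in siSLC25A1 (adjusted p = 0.00801), lost without siSLC25A1 replicate 2 (0.0667) or siControl replicate 2 (0.0766). It fell by 1.01 in siACO1 (adjusted p = 0.00704), lost without siACO1 replicate 3 (0.0531) or siControl replicate 2 (0.0724).

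Of 24 tested matrix glycoproteins and proteoglycans, 14 changed in siSLC25A1 (10 higher, 4 lower; median log2 fold change 0.43), 12 in siACLY (10 higher, 2 lower; median 0.38) and 12 in siACO1 (5 higher, 7 lower; median -0.04). These were 58.3%, 50.0% and 50.0% of the list, beside 19.6%, 36.7% and 37.1% of all tested genes, whose medians were -0.00448, 0.00769 and 0.00632. LTBP2, which binds elastic fibres, had 34.3 CPM in siControl and 71.5 CPM in siSLC25A1 (1.06, adjusted p = 2.94e-08), and ECM1 had 8.30 and 16.6 CPM (0.99, adjusted p = 2.02e-09). VCAN (versican), under 1 CPM in every group, rose by 2.61 in siACLY (adjusted p = 2.41e-05) and by 1.93 in siACO1 (adjusted p = 0.00175), and by 1.62 in siSLC25A1 (adjusted p = 0.0201), which was lost without siControl replicate 1 (0.126), siControl replicate 3 (0.052) or siSLC25A1 replicate 3 (0.0815). FBN1 (fibrillin) rose by 1.49 in siACO1 (adjusted p = 0.000219) and by 1.00 in siACLY (adjusted p = 0.0117), the latter lost without siACLY replicate 1 (0.103). VTN (vitronectin) rose by 2.34 in siACLY (adjusted p = 0.000587), and MATN3 fell by 1.57 in siACO1 (adjusted p = 0.0106), lost without siACO1 replicate 1 (0.0502).

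Of 34 tested genes that link integrins to actin, 15 changed in siSLC25A1 (11 higher, 4 lower), 20 in siACLY (9 and 11) and 16 in siACO1 (5 and 11). The shares were 44.1%, 58.8% and 47.1%, beside 19.6%, 36.7% and 37.1% of all tested genes, and the medians were 0.10, -0.02 and -0.02, beside -0.00448, 0.00769 and 0.00632. FERMT1 (kindlin), which activates integrins through the beta chain, had 128 CPM in siControl, 286 CPM in siSLC25A1, 248 CPM in siACLY and 68.9 CPM in siACO1. Its log2 fold changes were 1.16, 0.95 and -0.89 (adjusted p = 4.87e-17, 2.87e-15 and 1.96e-14), and -0.85 in siACO1 without replicate 3. TGFB1I1, a focal adhesion adaptor, rose by 0.69, 1.05 and 0.86 (adjusted p = 2.22e-10, 5.44e-15 and 4.62e-13). KANK2, a talin-binding protein, fell by 0.82 in siACLY (adjusted p = 8.06e-12), and LIMS2 fell by 0.77 in siACO1 (adjusted p = 9.71e-07). NEDD9, at 0.491 CPM in siControl, had a log2 fold change of -1.53 in siSLC25A1 (adjusted p = 0.0264), lost without siControl replicate 1 (0.0819) or 3 (0.0624) or siSLC25A1 replicate 1 (0.0997) or 2 (0.106).

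Of 21 tested receptors that are not integrins, and integrin partners, 9 changed in siSLC25A1 (6 higher, 3 lower), 13 in siACLY (5 and 8) and 16 in siACO1 (8 and 8). In percent this was 42.9, 61.9 and 76.2 of the list, beside 19.6, 36.7 and 37.1 of all tested genes, and the medians were 0.05, -0.06 and 0.01, beside -0.00448, 0.00769 and 0.00632. BCAM, a receptor for LAMA5-containing laminins, had 11.3 CPM in siControl and log2 fold changes of -1.02, -0.78 and -0.44 (adjusted p = 1.07e-07, 1.48e-06 and 0.00142), and so was lower in each knockdown, as LAMA5 was. PLAUR, the urokinase receptor, rose by 0.96 in siSLC25A1 and 0.88 in siACLY (adjusted p = 6.28e-12 and 1.22e-11). MRC2, a collagen uptake receptor, had 18.4 CPM in siControl, 31.1 CPM in siACLY and 32.4 CPM in siACO1 (0.77 and 0.82). CAV1 (caveolin) fell by 0.66 in siACO1 (adjusted p = 1.46e-11), and CD82, a tetraspanin partner of integrins, rose by 0.76 in siSLC25A1 (adjusted p = 9.41e-06). CSPG4 had 0.438 CPM in siControl and 1.08 CPM in siACO1 (1.27, adjusted p = 0.00442).

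Keratins form the filaments that hemidesmosome integrins hold. The 6 epithelial markers summed to between 3610 and 3750 CPM in siControl and between 2060 and 2180 CPM in siACO1. KRT8, KRT18 and KRT19 were lower there, at -0.83, -0.78 and -0.76 on the log2 scale. In siSLC25A1 the sum, most of it KRT8 and KRT18, ran from 3130 to 3450 CPM and in siACLY from 3810 to 3910 CPM. KRT19 rose by 0.45 in siSLC25A1 and by 0.67 in siACLY (adjusted p = 8.68e-08 and 1.11e-11). KRT8 and KRT18 fell in siSLC25A1, at -0.18 and -0.20 (adjusted p = 0.00179 and 0.000495), and were not called in siACLY. VIM rose by 0.36 in siACLY (adjusted p = 2.17e-07) and was not called in the other knockdowns. ZEB1 rose by 0.65 and 0.60 in siSLC25A1 and siACLY and was at -0.01 in siACO1. The part of these markers in the changes of the collagen, laminin and integrin chains was not tested.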

How the data were processed

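The deposited counts are given per gene in 1 table with a column for each of the 12 libraries. That they are not normalized was assumed from their deposited name, which calls them raw counts. Poly(A) RNA was captured on beads and primed with random hexamers, per the labels' protocols. The submitters' processing notes name CASAVA, FastQC, Trim Galore, STAR 2.7.0e and DESeq2, and the builds GRCh38 and GRCm39, without roles. The counting tool, strand setting and annotation are not given in the sources used here, so reads of overlapping or antisense genes cannot be told apart.

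Symbols matched 62700 of 70116 identifiers (89.4%). Lengths and positions came from GENCODE 29 (GRCh38). Low counts were removed with filterByExpr (defaults), leaving 16197 genes, and libraries were scaled by TMM. The model of the 4 groups took all 12 libraries and used edgeR's robust quasi-likelihood method (version 4.0.16, R 4.3.3; 8 residual degrees of freedom, common biological coefficient of variation 4.89%). Tests were two-sided, with Benjamini-Hochberg adjustment over all tested genes; a call is an adjusted p under 0.05. Errors of levels are SDs over 3 libraries. CPM is per TMM-scaled library. Alternatives were DESeq2 1.42.0, other scalings and filters, the groups compared alone, a replicate block, a minimum change and each library left out. The fit was also run on simulated counts, with far fewer changed genes than were called here and no deviation by exon length. That run therefore does not gauge the fit under the conditions of these data.

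Named genes were chains called against siControl with an absolute log2 fold change of at least 0.5, at least 1 CPM on average where the gene was higher, and no knockdown library within the siControl range; the 2 highest chains per role by level per length in siControl; obligate partners and head-to-head neighbours of the first; the 3 largest called changes per other list and comparison; and the 3 targets. Other chains were named after their values were seen, so that every tested chain is accounted for; 1 untested chain is not reported here by name. The members and lists were chosen with earlier results of these data known.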

Additional observations from a re-analysis of the deposited data

How the results depend on the processing

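The count of changed chains stayed within 1.5 times its value under each other scaling, filter, tool, block and left-out library. Requiring an absolute log2 fold change of at least 0.5 left 7 chains in siSLC25A1, 10 in siACLY and 12 in siACO1 against siControl, and 3 in siSLC25A1 against siACLY, 16 in siSLC25A1 against siACO1 and 14 in siACLY against siACO1, since many calls were small. The share of all tested genes at that cut was not computed, so these counts cannot be set beside it. Leaving out 1 library gave 17 to 22, 20 to 27 and 18 to 26 chains against siControl, and 13 to 17, 25 to 28 and 25 to 27 between knockdowns, in the same order. Over all genes the same fits called 2319 to 4131, 5002 to 6734 and 5097 to 6196 against siControl. Between knockdowns they called 4658 to 6331, 6040 to 6770 and 6017 to 6910. Deviations of same-numbered libraries from their group means correlated between -0.034 and 0.067 over all tested genes. Libraries with different numbers ran from -0.072 to 0.071. Such weak correlations cannot exclude a shared batch, and the labels name none. With a replicate block the counts were 20, 26, 21, 17, 28 and 27. The block ended the calls of COL6A3 in siSLC25A1 (adjusted p = 0.078) and of ITGAD (0.0556) and ITGB1 (0.0524) in siACO1. The 201 results for single genes include genes of the other lists and results that were never called. None that was called turned its direction. Under every alternative but the minimum change, 156 of the 201 stayed called or stayed uncalled, so this is not a share of the calls. Low chains without a call could change sign, such as COL4A3 in siSLC25A1 (0.28, lowest -0.37). DESeq2 called 20, 26 and 23 chains against siControl. No scaling moved the median of all tested genes by more than 0.048 on the log2 scale. Depth limits the chains under about 1 CPM, and changes of RNA content per cell are not seen.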
